A study of Homo sapiens with 4 samples.

Results

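Nuclear pore proteins and the receptors that carry cargo through the pore were followed at the RNA level in TPC1 cells held in the RET inhibitor BLU6864 for 6 h or for 24 h. In this line, which derives from human thyroid cancer, RET is fused to CCDC6. Members were the protein-coding genes of the deposited table whose symbols begin with NUP, KPNA, KPNB, XPO, IPO or TNPO followed by a number (or T for XPOT), together with RAN, RANBP1, RANBP2, RANGAP1, RCC1, TPR, CSE1L, NDC1 and POM121. This rule found 54 members among 20372 genes, of which 20356 are protein coding, and it used no measured value. The groups were BLU6864_24h and BLU6864_6h, with 2 libraries each, all from cells grown in DMEM with 10% FBS. The labels give the dose as 100 micromolar and the methods give it in nanomolar units, so the concentration is uncertain. Untreated and vehicle-treated libraries were not analysed here, so hours under the drug and hours in culture cannot be told apart. Nothing in the labels states that the libraries of a group came from separate cultures, so P values measure only the spread between these libraries, which may be technical. The titles of the 24 h libraries carry a note of re-analysis, and whether this affected the comparison was not tested.

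The nuclear pore is a channel through the nuclear envelope built from rings of nucleoporins. An outer ring (the Y complex) and an inner ring form its frame, membrane proteins anchor it, and nucleoporins with phenylalanine-glycine repeats fill the channel. Importins bind cargo in the cytoplasm and release it in the nucleus when they meet RAN loaded with GTP, whereas exportins take up cargo together with RAN-GTP and release it in the cytoplasm. RCC1 loads RAN with GTP in the nucleus, and RANGAP1 with RANBP1 and RANBP2 triggers GTP hydrolysis on the cytoplasmic side. The pore and several of its transport factors also take part in the reassembly of the nucleus after mitosis and in spindle formation.

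Sequencing depth, as the total count over genes, was 26486456 and 27457040 at 24 h and ranged from 23917056 to 26829072 at 6 h. Members took 0.428% and 0.417% of all counts at 24 h and 0.529% and 0.509% at 6 h, so both 24 h libraries lay below both 6 h libraries. The thyroid label was checked against 6 follicular cell markers. PAX8, a thyroid transcription factor, had raw counts of 20035 and 21660 at 24 h and 19124 and 22978 at 6 h and was the most abundant of them. TG, the precursor protein of thyroid hormone, had 98 and 111 at 24 h and 186 and 245 at 6 h, and FOXE1, another thyroid transcription factor, 462 and 556 at 24 h and 273 and 279 at 6 h. Their log2 fold changes (24 h minus 6 h) were -1.09 (edgeR adjusted P = 2.77e-07) and 0.84 (edgeR adjusted P = 1.37e-07), in opposite directions. TSHR and NKX2-1 had 0 counts in every library, and SLC5A5 had at most 7. The summed raw counts of the 6 markers were 20598 and 22330 at 24 h and 19585 and 23509 at 6 h. Of 6 epithelial markers, 4 had more than 3 counts in every library, with KRT8 the most abundant, and their sums were 3364 and 3425 at 24 h and 2886 and 3108 at 6 h. CDH1 and EPCAM did not pass this mark, with at most 8 and 11 raw counts in a library. KRT19 and KRT7 differed in opposite directions, by -1.59 and 0.84 on the log2 scale. Of 6 fibroblast markers, 3 had more than 3 counts in every library, with PDGFRB the most abundant and COL1A2 and COL3A1 at 0, and their sums were 246 and 299 at 24 h and 560 and 650 at 6 h. Among them COL1A1 and PDGFRB were lower at 24 h, with log2 fold changes of -1.57 and -1.48, whereas LUM was higher at 0.75 (edgeR adjusted P = 0.00436). White blood cell markers were near 0 apart from CD14, with sums of 92 and 92 at 24 h and 49 and 48 at 6 h for all 6 genes.

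KPNA2, the importin alpha with the highest level at 6 h, showed the largest change of any tested member and was 4.64-fold lower at 24 h. NDC1, NUP88, NUP37, CSE1L, NUP107, NUP205, RANBP1, RANGAP1 and XPO1 were also lower, whereas the exportins XPO5 and XPO6 were higher. RAN itself, KPNB1, NUP62 and NUP98 lay within 0.1 of 0 on the log2 scale. With library size alone, RAN was at -0.103 and KPNB1 at -0.104. The calls follow 2 rules, and both rest on the quasi-likelihood test of edgeR over all 12876 genes that passed a filter on low counts. The first takes an absolute log2 fold change (24 h minus 6 h) over 0.5 with an unadjusted P under 0.01. The methods of the study give a like rule for lower genes only, with DESeq2 and without saying whether P was adjusted, so its use in both directions, with edgeR and on the unadjusted P, is a choice made here. The second is a Benjamini-Hochberg adjusted P under 0.05 without a limit on the fold change, and "fell" and "rose" are used only of genes that passed it.

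Of the 54 members, 50 passed the filter on low counts. IPO4 and NUP210 were at or under 3 counts in every library. KPNA7 had raw counts of 2 and 2 at 24 h and of 17 and 5 at 6 h, and NUP210L had 5 and 2 at 24 h and 7 and 5 at 6 h. KPNA7 passed both rules as lower with no filter on low counts and without the second 6 h library. Without the first 24 h library it passed the second rule as lower. IPO4 shares 8570 of its 8746 bases with another gene model of the table on the same strand, so its count is uncertain. Past both cutoffs of the first rule, 11 of 50 tested members (22%) were lower, against 17.7% of all genes tested, a share near the background. Only 2 members (4%), XPO5 and XPO6, were higher past both cutoffs, against 17.4% of all genes tested. At an adjusted P under 0.05, 26 members (52.0%) fell, against 32.6% of all genes, and 8 (16.0%) rose, against 33% of all genes. Both 24 h libraries lay below both 6 h libraries for 32 members (64.0%), where 40.8% of all genes did so, and above them for 11 members (22%), where 41% of all genes did so. The median log2 fold change of the tested members was -0.20, beside 0.003 for all genes tested, and 37 of the 50 lay within 0.5 of 0. Leaving out each library in turn gave a median log2 fold change of the members from -0.22 to -0.16. Without the second 24 h library, IPO8, NUP160, NUP35, RCC1, TNPO1, TPR, XPO7 and XPOT no longer passed the adjusted test as lower. NUP214 and POM121 then no longer passed it as higher. Without the first 6 h library, KPNA6, NUP160, NUP35, NUP62CL, RCC1 and XPO7 were lost among those that fell. How many of all genes tested lost their call in those fits is not given here.

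**Figure D1:**
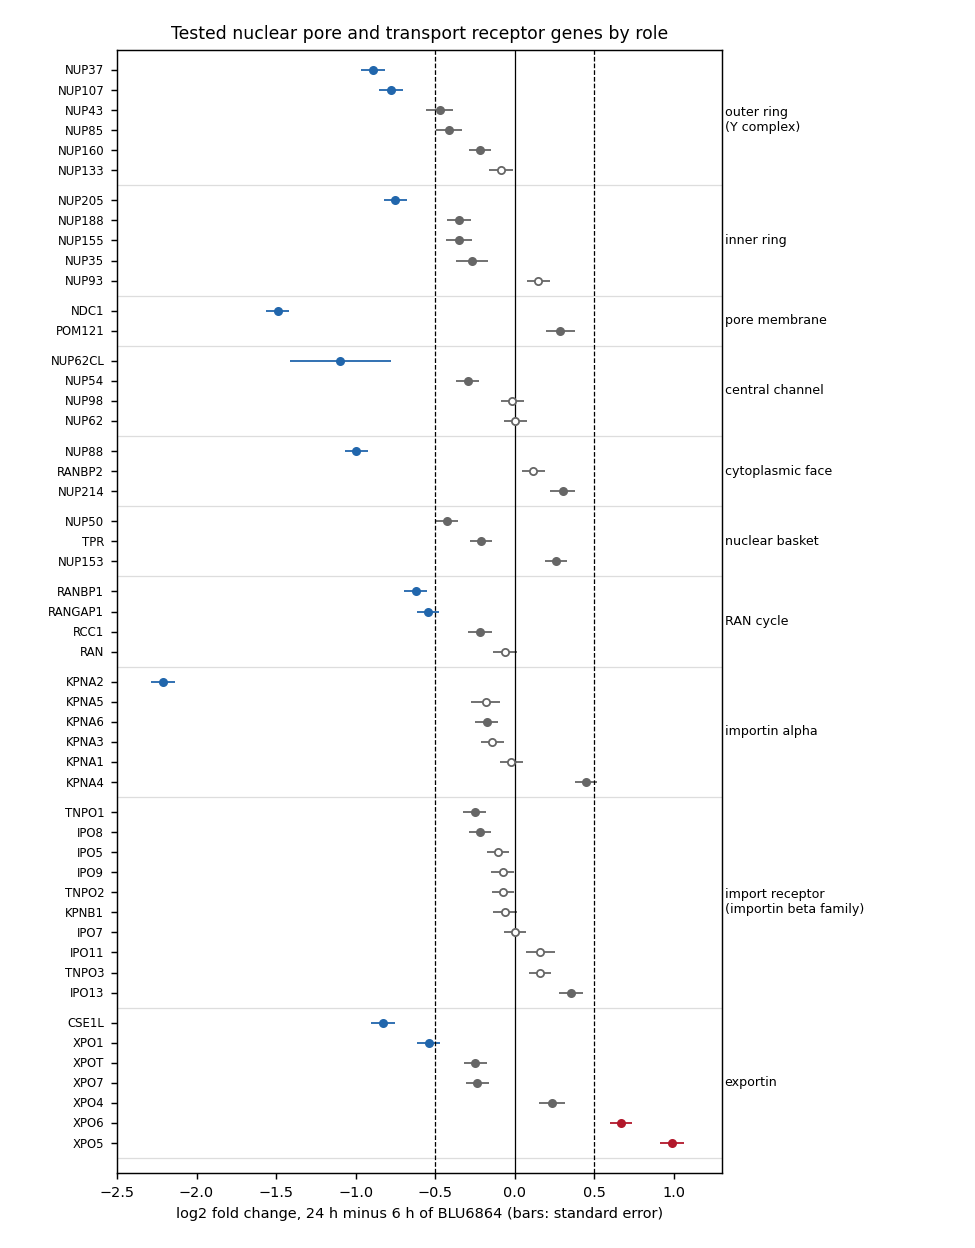
Log2 fold change (24 h minus 6 h) of the 50 tested members, grouped by role, with the standard error as bars and dashed lines at -0.5 and 0.5. Blue (lower) and red (higher) points passed both cutoffs of the first rule, filled points passed an adjusted P under 0.05, and the points run from KPNA2 at -2.21 to XPO5 at 0.99.

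**Figure D2:**
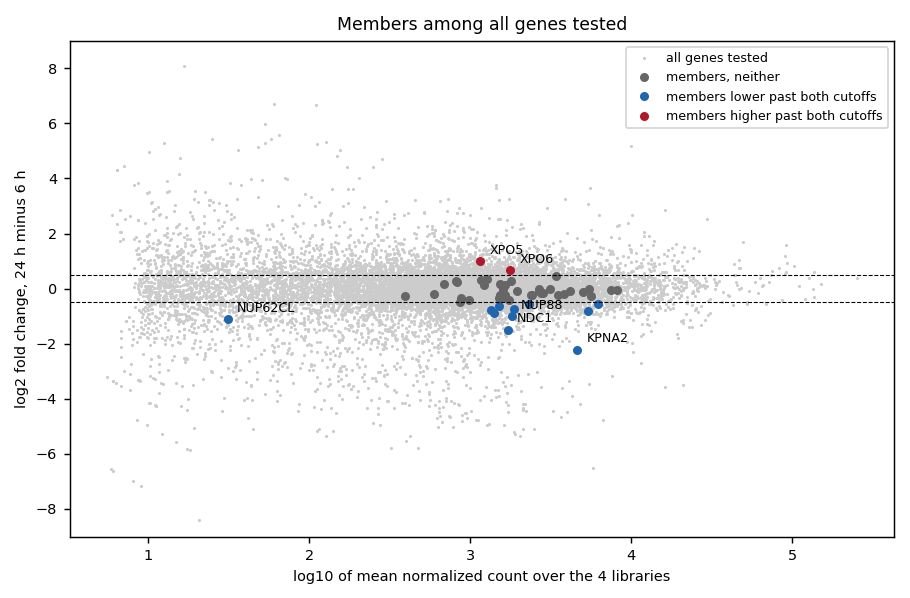
Log2 fold change (24 h minus 6 h) of all 12876 genes tested (grey) and of the members (larger points) against the log10 of the mean normalized count over the 4 libraries. Members lower (blue, 11 genes) and higher (red, 2 genes) past both cutoffs are coloured, and NUP62CL is the only coloured member with a mean normalized count under 100.

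The largest difference lay in importin alpha, the family of adaptors that recognise the classical nuclear localisation signal and link cargo to KPNB1. KPNA2 (chr17:66031635-66042958, hg19) had normalized counts of 7851 and 7390.2 at 6 h and of 1679.7 and 1607 at 24 h. Both 24 h libraries were far below both 6 h libraries, and the spread within a time was small beside the difference (1643 ± 51.7 at 24 h against 7621 ± 326 at 6 h, SD, n = 2 each). Its log2 fold change was -2.21 (SE 0.075, edgeR adjusted P = 2.2e-19), and 2.9% of all genes tested had a lower value. KPNA4, another member of the family, rose with a log2 fold change of 0.45 (SE 0.072, edgeR adjusted P = 4.67e-06) and stayed short of the fold cutoff, which it passed at 0.51 without the first 6 h library. KPNA6 fell with a log2 fold change of -0.18, a call that was lost in DESeq2, under upper quartile scaling, with no filter on low counts, without the first or the second 6 h library and without the first 24 h library, where the value was -0.08. KPNA3 and KPNA5 had values of -0.14 and -0.18 that did not pass the adjusted test, which both passed as lower with library size alone (-0.18 and -0.23) and with the replicate block (-0.14 and -0.18). KPNA1 had the smallest difference of the family, with normalized counts of 3316 and 2988 at 6 h and 3023 and 3186 at 24 h, which gave -0.02 on the log2 scale. Its libraries overlapped between the times, and its sign turned under upper quartile scaling.

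The makeup of importin alpha RNA also differed between the libraries of the 2 times. When normalized counts were divided by the length of the longest protein-coding transcript and summed over the 7 genes, KPNA2 held 57.1% and 57.1% of the sum at 6 h and 23.3% and 21.6% at 24 h. KPNA3 held 15.2% and 15.7% at 6 h and 25.3% and 25.8% at 24 h. By this measure it took the largest share at 24 h, although its own level did not pass the test. That rank rests on the division by length. In mean normalized count at 24 h, KPNA4 (3940) and KPNA1 (3104) were above KPNA3 (2681). KPNA4 held 7.2% and 7.05% at 6 h and 17.8% and 17.6% at 24 h. Shares within a family sum to the whole, so the lower share of KPNA2 raises the others. No test was run on these shares, and how reads were assigned between KPNA2 and its processed copies is not given in the sources used here. The labels describe single-end reads and the methods longer paired-end reads, so the read type that bears on such assignment is uncertain for KPNA2, RAN and POM121.

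**Figure D3:**
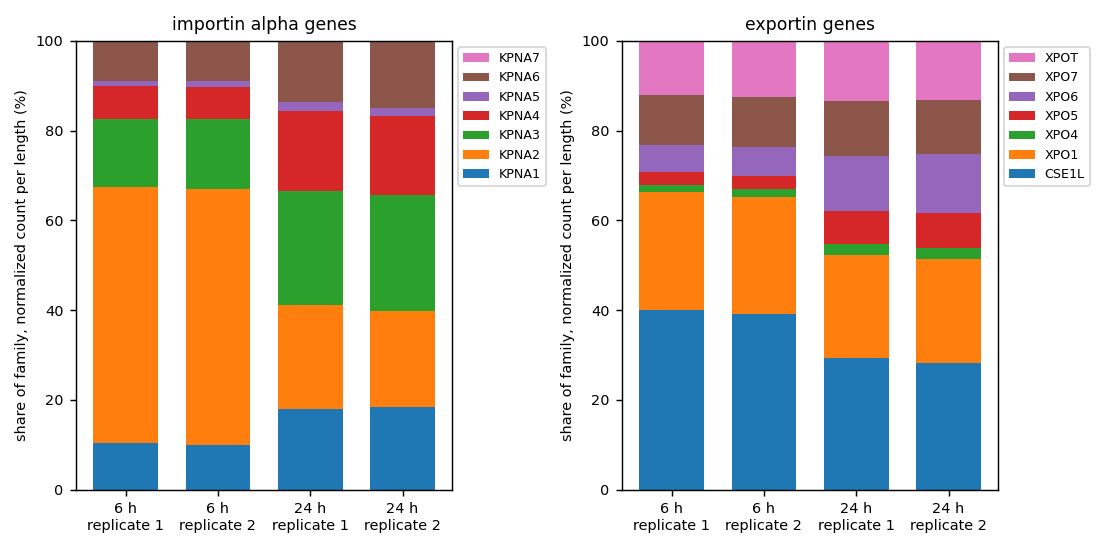
Share of each gene in the summed normalized count per transcript length of the importin alpha family (left) and of the exportins (right), in percent, in each of the 4 libraries. KPNA2 holds 57.1% in both 6 h libraries and 23.3% and 21.6% at 24 h, and CSE1L 40.1% and 39.2% at 6 h and 29.2% and 28.3% at 24 h.

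All 7 exportins passed the adjusted test, 4 lower (57.1%) and 3 higher (42.9%), where 32.6% of all genes fell and 33% rose. CSE1L, the exportin that returns importin alpha to the cytoplasm, had normalized counts of 7240.3 and 6484 at 6 h and of 4018 and 3722 at 24 h. The times did not overlap, and the log2 fold change was -0.83 (SE 0.076, edgeR adjusted P = 3.24e-10). XPO1, the receptor for leucine-rich nuclear export signals, had 7702 and 7058 normalized counts at 6 h and 5177 and 4969.8 at 24 h. The log2 difference of -0.54 (SE 0.074, edgeR adjusted P = 4.04e-07) was the smallest fall past both cutoffs, and it was -0.48 without the first 6 h library, short of the fold cutoff. XPOT, which exports tRNA, and XPO7 fell with log2 fold changes of -0.25 and -0.23. Both calls were lost without the second 24 h library, and that of XPO7 also without the first 6 h library.

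XPO5, the export receptor of precursor microRNAs, went the other way. It had normalized counts of 815 and 737 at 6 h and of 1521 and 1557 at 24 h, with both 24 h libraries above both 6 h libraries. On the log2 scale the difference was 0.99 (SE 0.077, edgeR adjusted P = 1.32e-11), a 1.99-fold higher level at 24 h, and 92.6% of all genes tested had a lower value. XPO5 (chr6:43490072-43543812, hg19) shares 7252 bases with POLR1C on the opposite strand. POLR1C had raw counts of 442 and 524 at 6 h and 889 and 886 at 24 h. The methods name a stranded library kit, the labels give the kit without that word, and whether the counting used strand is not given in the sources used here, so reads of XPO5 and POLR1C cannot be told apart where they overlap. XPO6 (chr16:28109300-28223241, hg19), which exports actin bound to profilin, overlaps no other gene of the table. Its normalized counts were 1384 and 1365 at 6 h and 2173 and 2191 at 24 h, with a log2 fold change of 0.67 (SE 0.070, edgeR adjusted P = 4.07e-09). XPO4 had the smallest difference of the exportins, with 784 and 747 normalized counts at 6 h and 898 and 901 at 24 h. It rose with a log2 fold change of 0.23 (SE 0.080, edgeR adjusted P = 0.0132), a call that was lost in DESeq2 and without the second 6 h library.

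Per transcript length, CSE1L and XPO1 were the most abundant exportins at both times. CSE1L had 1933 normalized counts per kilobase at 6 h and 1090.2 at 24 h, and XPO1 had 1272 and 875. XPO6 had 303 at 6 h and 481 at 24 h, and XPO5 had 146 and 289. In share of the summed exportin level, XPO6 and XPO5 held 6% and 3.01% in the first 6 h library and 12.4% and 7.39% in the first 24 h library.

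Import receptors of the importin beta family had the smallest median absolute log2 fold change of the role groups, 0.13. All 10 tested genes had log2 fold changes between -0.25 (TNPO1) and 0.35 (IPO13), inside the 0.5 cutoff. At an adjusted P under 0.05, TNPO1 and IPO8 fell and IPO13 rose, or 20% and 10% beside 32.6% and 33% of all genes. Both falls were lost without the second 24 h library. At an unadjusted P under 0.05 the edgeR test had 2 lower and 2 higher of the 10, beside 4371 lower and 4424 higher of all 12876 genes tested. KPNB1, which carries importin alpha and its cargo through the pore, had normalized counts of 7905 and 7351 at 6 h and 7412 and 7207 at 24 h. The times overlapped, and its log2 fold change was -0.06 (SE 0.073, edgeR adjusted P = 0.474). Leaving out each library in turn gave KPNB1 values from -0.117 to -0.009. IPO7 had 5494 and 5373 at 6 h and 5325 and 5556 at 24 h, a log2 difference of 0.002 (SE 0.071) whose sign turned in DESeq2 and with library size alone. IPO11 overlaps KIF2A over 133278 bases, and LRRC70 and CKS1B over shorter stretches, so its log2 fold change of 0.16 is uncertain. Leaving out each library in turn gave IPO11 values from 0.04 to 0.28, and it passed the adjusted test as higher at 0.28 without the first 6 h library. TNPO3, also at 0.16, passed the adjusted test as higher under upper quartile scaling, with at least 10 counts in every library and with the replicate block. The median log2 fold change of this group was -0.07, and it was -0.03 without the second 24 h library or the first 6 h library.

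In the RAN cycle, 3 of the 4 genes (75%) fell, beside 32.6% of all genes tested, and RAN did not pass the adjusted test. RAN, the GTPase that gives transport its direction, had the highest level per length of all members, 3353 normalized counts per kilobase at 6 h and 3216 at 24 h. Its normalized counts were 8080.2 and 8511 at 6 h and 8005 and 7906 at 24 h, with a log2 fold change of -0.06 (SE 0.073, edgeR adjusted P = 0.478). Both 24 h libraries lay below both 6 h libraries, yet the difference was about the size of its standard error. Leaving out each library in turn gave RAN values from -0.098 to -0.027. RAN has near-identical processed copies, and how reads were assigned among them is not given in the sources used here.

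RANBP1, which helps to release RAN from export complexes, had 1810.3 and 1861 normalized counts at 6 h and 1218 and 1168 at 24 h. This gave a log2 fold change of -0.62 (SE 0.071, edgeR adjusted P = 2.01e-08), with an overlap of 1455 bases with TRMT2A on the opposite strand. RANGAP1, the GTPase-activating protein, had 2766 and 2755 at 6 h and 1945 and 1836 at 24 h. The log2 difference of -0.55 (SE 0.070, edgeR adjusted P = 1.58e-07) became -0.50 without the second 24 h library, just short of the fold cutoff. RCC1, the nucleotide exchange factor, had 1782 and 1779 at 6 h and 1654 and 1409 at 24 h. It fell by 0.22 on the log2 scale (SE 0.077, edgeR adjusted P = 0.015), and the call was lost in DESeq2, without the first 6 h library and without the second 24 h library, where the value was -0.10.

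**Figure D4:**
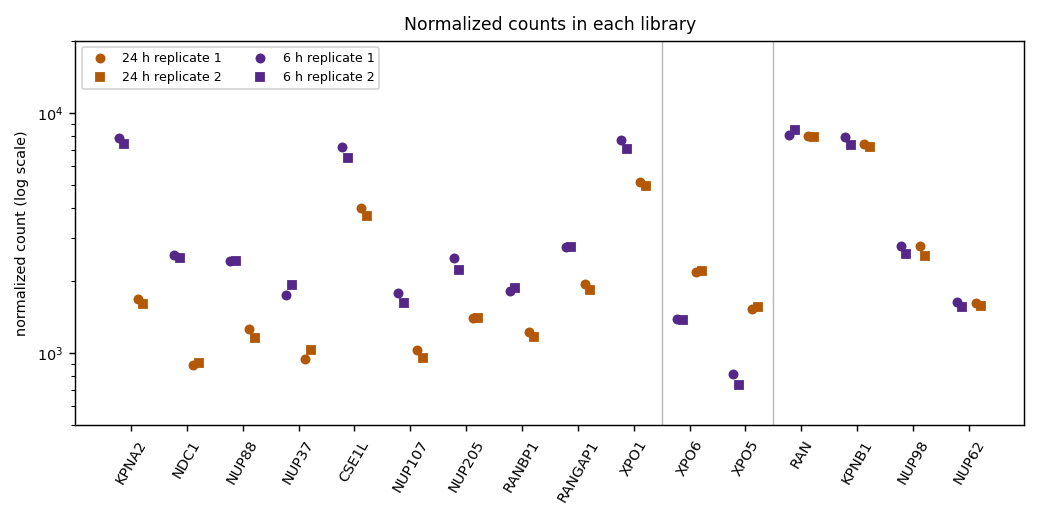
Normalized counts (log scale) of the members past both cutoffs with a mean of at least 100, and of RAN, KPNB1, NUP98 and NUP62, in each of the 4 libraries (purple 6 h, orange 24 h). The 10 genes at the left lie lower at 24 h, XPO6 and XPO5 higher, and the 4 genes at the right lie close together at both times.

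Of the pore genes proper, 15 of 23 tested fell and 3 rose at an adjusted P under 0.05, with a median log2 fold change of -0.30. The shares are 65.2% and 13.0%, beside 32.6% and 33% of all genes tested. The median was -0.25 both without the second 24 h library and without the first 6 h library, and some of these calls were lost in each case. In the outer ring, 5 of the 6 member genes (83.3%) fell, with a median of -0.44. NUP37 had normalized counts of 1746 and 1915 at 6 h and 943 and 1028 at 24 h, a difference of -0.89 on the log2 scale (SE 0.076, edgeR adjusted P = 6.73e-11). NUP107, a core subunit of the Y complex, had 1775 and 1622 at 6 h and 1028 and 951 at 24 h, or -0.78 on the log2 scale (SE 0.075, edgeR adjusted P = 9.55e-10). NUP43 and NUP85 fell with values of -0.47 and -0.41, and NUP160 with -0.22, a call that was lost without the second 24 h library and without the first 6 h library. NUP43 stood just outside the fold cutoff and passed it at -0.51 with library size alone, at -0.52 without the first 24 h library and at -0.54 without the second 6 h library. NUP85 passed it at -0.50 without the first 24 h library, so that 4 outer ring genes were then lower past both cutoffs in place of 2. NUP43 shares 223 bases with PCMT1 on the opposite strand, whose raw counts were 1944 and 1856 at 24 h and 2803 and 3157 at 6 h. NUP133, which joins neighbouring Y complexes, had 2928 and 2569 at 6 h and 2631 and 2539 at 24 h. Its times overlapped, and its log2 fold change was -0.09 (SE 0.074, edgeR adjusted P = 0.307). Of the Y complex genes whose symbols lie outside the rule, SEC13 fell with -0.34, whereas SEH1L and AHCTF1 rose with 0.16 and 0.22. The call of SEH1L was lost in DESeq2, with library size alone, with no filter on low counts and without each of the 4 libraries in turn. That of AHCTF1 was lost in DESeq2, with library size alone, without the first 24 h library and without the second 6 h library, where its value was 0.13.

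In the inner ring, 4 of 5 genes (80%) fell, beside 32.6% of all genes tested. NUP205 had normalized counts of 2484 and 2224 at 6 h and 1404 and 1393 at 24 h, a log2 difference of -0.75 (SE 0.073, edgeR adjusted P = 1.08e-09). NUP188, a large scaffold nucleoporin related to NUP205, fell with -0.35, NUP155 with -0.35 and NUP35 with -0.27. NUP188 shares 9323 of its 59398 bases with another gene model on the same strand, which had 0 counts in every library. It also shares 61 bases with SH3GLB2 on the opposite strand, so its count is uncertain. The call of NUP35 was lost in DESeq2, without the first 6 h library and without the second 24 h library, where the value was -0.17. NUP93, which holds the inner ring together, had 1149.7 and 1173 at 6 h and 1319 and 1257 at 24 h. Both 24 h values were above both 6 h values, with a log2 fold change of 0.15 (SE 0.073) that did not pass the adjusted test (edgeR adjusted P = 0.0761). NUP93 passed it as higher under upper quartile scaling (0.18) and with the replicate block (0.15).

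Both tested genes of the pore membrane passed the adjusted test, in opposite directions, where 32.6% of all genes fell and 33% rose. NDC1, a transmembrane nucleoporin (chr1:54231133-54304533, hg19), had normalized counts of 2570.3 and 2493 at 6 h and 892 and 911 at 24 h. The groups were well apart (901 ± 13.6 at 24 h against 2532 ± 54.4 at 6 h, SD, n = 2 each), and the log2 fold change was -1.49 (SE 0.072, edgeR adjusted P = 5.44e-16), or 2.81-fold lower. POM121, another membrane nucleoporin, had 674 and 791 at 6 h and 825 and 964 at 24 h. It rose with a log2 fold change of 0.29 (SE 0.092, edgeR adjusted P = 0.00824), a call that was lost at 0.18 without the second 24 h library and at 0.18 without the first 6 h library. POM121 has a near-identical copy, POM121C, with a log2 fold change of 0.39, so reads could be split between them.

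In the central channel, NUP62 had normalized counts of 1624 and 1553 at 6 h and 1611 and 1576 at 24 h. This repeat nucleoporin had a log2 fold change of 0.005 (SE 0.070, edgeR adjusted P = 0.956) that turned negative with library size alone, and it shares 22715 of its 22939 bases with IL4I1. NUP98, which also lines the channel, had 2804 and 2581 at 6 h and 2788 and 2539.9 at 24 h, a log2 difference of -0.01 (SE 0.074) that turned positive under upper quartile scaling. NUP54, the partner of NUP62, fell with -0.30. NUP62CL was low, with 49.7 and 35.5 normalized counts at 6 h and 13.0 and 26.3 at 24 h. The log2 difference of -1.10 (SE 0.317, edgeR adjusted P = 0.00376) did not pass both cutoffs in DESeq2, although the value there was -1.12. It also did not pass them without the first 24 h library (-0.67) or without the first 6 h library (-0.85). The value was -1.69 without the second 24 h library and -1.33 without the second 6 h library.

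On the cytoplasmic face, NUP88 had normalized counts of 2414 and 2409 at 6 h and 1259 and 1159 at 24 h. This partner of NUP214 had a log2 fold change of -0.996 (SE 0.072, edgeR adjusted P = 2.75e-12). NUP88 shares 24872 bases with RABEP1 on the opposite strand, whose raw counts were higher at 24 h (1912 and 1802) than at 6 h (1404 and 1550). It also shares 520 bases with RPAIN on the opposite strand, whose raw counts were lower at 24 h (1127 and 1176) than at 6 h (1391 and 1693). NUP214 itself rose with 0.30, although its call was lost at 0.20 without the second 24 h library. Without the first 24 h library the value was 0.41. RANBP2, the large filament protein that binds RAN and SUMO-modified RANGAP1, had 1621 and 1528 at 6 h and 1648 and 1766 at 24 h. With a log2 difference of 0.12 (SE 0.072, edgeR adjusted P = 0.157), it did not pass the test. Leaving out each library in turn gave RANBP2 values from 0.07 to 0.17. Of its 7 RGPD paralogs, only RGPD8 passed the filter, with a log2 fold change of 0.14 (SE 0.491) and at most 19 counts in a library.

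The nuclear basket was divided. TPR, its main structural filament, had normalized counts of 4170.2 and 4101 at 6 h and 3733 and 3409.9 at 24 h. It fell with a log2 fold change of -0.21 (SE 0.072, edgeR adjusted P = 0.0122), and the call was lost at -0.14 without the second 24 h library. NUP50, which helps to unload importin alpha, fell with -0.43. NUP153, which anchors the basket, had 1689 and 1584 at 6 h and 1954 and 1967 at 24 h and rose with 0.26 (SE 0.070, edgeR adjusted P = 0.00212).

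The promoters of the members were searched for short letter runs on both strands, in windows from 250 bases before to 50 bases after the start in the RefSeq table (GRCh38.p14). Of the 54 members, 47 were matched by symbol, and KPNA4, KPNA5, KPNA7, KPNB1, NUP43, RANBP1 and XPO7 were not. The cell cycle homology region (CHR) letters TTTGAA were found in 11 of 47 members (23.4%), beside 15.4% of all 27305 promoters. They were present in 5 of the 10 matched members that were lower past both cutoffs (KPNA2, NDC1, NUP37, CSE1L and NUP205) and in 6 of the 32 tested members that did not pass both together, RAN, NUP98 and IPO7 among them. CCAAT was found in 22 of 47 members (46.8%), beside 35.7% of all promoters, in 8 of the 10 lower members and in 12 of the 32 (37.5%). The ETS letters CCGGAAG were found in 14 of 47 (29.8%) beside 10.7% of all promoters, in 3 of the 10 lower members and in 9 of the 32. The E-box CACGTG was in 7 of 47 (14.9%) beside 7.43%, with 0 of the 10 lower members and 6 of the 32 among them. The NRF1 letters GCATGCGC were in 5 of 47 (10.6%) beside 3.27%, with 1 of the 10 and 4 of the 32. The E2F letters TTTCCCGC, TTTGGCGC or TTTCGCGC were in 3 of 47 (6.38%) beside 2.79%, with 0 of the 10 and 3 of the 32. The 27305 promoters were not limited to the 12876 genes tested or to protein-coding genes. Whether the shares differ among expressed genes alone was not tested. No test was run on these counts, and a match of letters is not a binding site.

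The 4 stretches of 30 bases below show the CHR letters that lie before the start in members past both cutoffs, with CHR and CCAAT letters in capitals, read 5′ to 3′ on the strand of the gene.
KPNA2: cccaacgtgtttTTCAAAtccaCCAATggg
NDC1: ggccttcctgccTTTGAActgcggtggcgg
NUP37: cgctgaatacagTTCAAAcctcgcgggagg
NUP205: gccctcgccttaTTTGAAtgggaataatcc
These stretches lie at chr17:68035624-68035653 (plus strand) for KPNA2, chr1:53838310-53838339 (minus strand) for NDC1, chr12:102120163-102120192 (minus strand) for NUP37 and chr7:135557740-135557769 (plus strand) for NUP205, all in GRCh38.p14. The letters begin 99 bases before the start in KPNA2, 31 in NDC1, 66 in NUP37 and 165 in NUP205. A CCAAT follows them in KPNA2, NUP37 and NUP205, beginning 89, 39 and 148 bases before the start. That of NUP37 lies outside its stretch, and that of NUP205 begins at the last base shown and is not in capitals. TTCAAA is the same run read on the other strand. In the 150 bases before the start, GENCODE v44 has 13 exon entries at KPNA2, 7 at NUP37, 1 at NDC1 and 0 at NUP205. The stretch shown for NUP205 runs from 177 to 148 bases before the start, almost wholly outside that window, so its exons were not counted.

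For comparison, the 150 bases before the start of XPO6, which rose, are given with the CCAAT letters in capitals (ATTGG, on the other strand, beginning 61 bases before the start).
XPO6: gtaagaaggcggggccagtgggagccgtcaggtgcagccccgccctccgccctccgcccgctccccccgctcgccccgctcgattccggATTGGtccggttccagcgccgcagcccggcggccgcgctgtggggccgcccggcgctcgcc
This stretch is chr16:28211966-28212115 on the minus strand (GRCh38.p14), and no GENCODE v44 exon reaches into it. Neither XPO5 nor RANGAP1, which was lower, had a match to any of the searched letters in its window.

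Genes of the pore and of transport outside the rule were read from a separate list of 22 genes, of which 21 passed the filter. Past both cutoffs, 3 (14.3%) were lower and 0 higher, beside 17.7% and 17.4% of all genes tested. NXT2, a cofactor of the mRNA export receptor NXF1, had a log2 fold change of -0.83 (SE 0.077), NUPL1, which encodes the channel nucleoporin NUP58, -0.57 (SE 0.075), and SENP1, a SUMO protease, -0.51 (SE 0.089). NUPL1 fell short of the fold cutoff at -0.47 without the second 24 h library. SENP1 did so at -0.48 under upper quartile scaling, at -0.44 without the second 24 h library and at -0.41 without the first 6 h library. The largest rise in this list was that of POM121C at 0.39, short of the fold cutoff. At an adjusted P under 0.05, 9 of the 21 (42.9%) fell and 5 (23.8%) rose, beside 32.6% and 33% of all genes. In DESeq2 and with library size alone 2 rose, and 3 rose with no filter on low counts. Some of the rises were also lost without each library in turn. The shares of all genes in these settings are not given here. The median log2 fold change was -0.17, and it was -0.09 without the first 24 h library.

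Genes of cell proliferation were lower in the same libraries. All 30 listed genes were lower past both cutoffs, with log2 fold changes from -4.85 (CENPE) to -0.51 (MCM6) and a median of -3.62, where 17.7% of all genes tested were lower. MCM6 fell short of the fold cutoff under upper quartile scaling, without the second 24 h library and without the first 6 h library. TOP2A at -4.75, BUB1B at -4.53 and CCNA2 at -4.48 followed CENPE. The summed normalized counts of the list were 15915 and 15452 at 24 h and 110345 and 107761 at 6 h. Whether the lower levels of members are part of this difference was not tested. In bulk RNA, fewer cells that express a gene and less RNA per cell cannot be told apart. Of 10 housekeeping genes, HPRT1 at -1.45 and PGK1 at -0.79 were lower and ACTB at 0.52 was higher past both cutoffs, and the median was -0.22. Past both cutoffs this made 20% lower and 10% higher, beside 17.7% and 17.4% of all genes tested. At an adjusted P under 0.05, 5 of the 10 (50%) fell and 3 (30%) rose, beside 32.6% and 33% of all genes tested. Of the tested members, 52.0% fell and 16.0% rose. ACTB fell short of the fold cutoff with library size alone (0.48), without the second 24 h library (0.47) and without the second 6 h library (0.48).

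**Figure D5:**
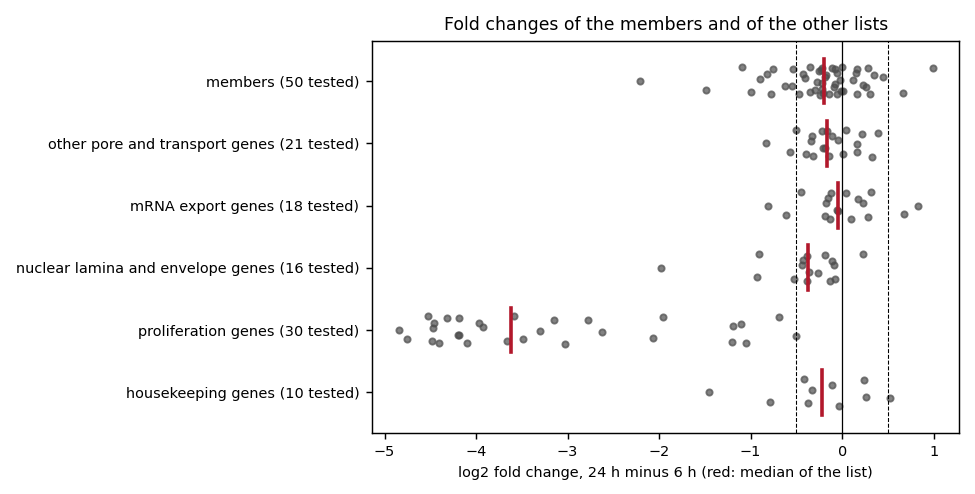
Log2 fold change (24 h minus 6 h) of every tested gene of the members and of 5 other lists, with the median of each list in red and dashed lines at -0.5 and 0.5; vertical scatter within a list has no meaning. The medians are -0.20 for the members, -0.17 for other pore and transport genes, -0.05 for mRNA export genes, -0.37 for lamina and envelope genes, -3.62 for proliferation genes and -0.22 for housekeeping genes.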

How the data were processed

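RNA of TPC1 cells after 6 h or 24 h of BLU6864 was sequenced in 2 libraries per time. Per the labels, the authors aligned reads with STAR 2.3 to hg19, and the methods name a later version. The authors deposited raw counts per gene and a normalized signal, the count divided by a size factor per library. Their comparison columns (fold changes and P values of DESeq2) were not used, and 0 per-sample columns were left unused. Reads were single-end per the labels and paired-end in the methods, which also name a stranded kit. The counting program, its strand setting and the annotation release are not given in the sources used here.

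The deposited raw counts went into edgeR 4.0.16 (R 4.3.3; filterByExpr, TMM, quasi-likelihood test, time as the single factor), which kept 12876 genes. Normalized counts are raw counts scaled to the mean TMM library size, standard errors are the log2 fold change over the root of F, and P values were adjusted by Benjamini-Hochberg over all genes tested. Scripts were tested on simulated data. Alternatives were DESeq2 1.42.0, other scalings and filters, a replicate block and each library left out. Lengths are those of the longest protein-coding transcript in GENCODE v44, found for all 54 members. The libraries of a time differed by more than counting noise, the chi-square divided by its degrees of freedom being 7.65 at 24 h and 10.0 at 6 h.

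Members and lists were chosen with earlier results of these data known. Members named with library values were those past both cutoffs with a mean normalized count of at least 100, the RAN cycle genes, a fixed set of central transport genes, and the member of each role with the smallest absolute log2 fold change. Of other lists, up to 4 genes past both cutoffs in each direction were named by size. NUP62CL and other named genes were chosen with their values in view. Repeats in the pore proteins were not analysed here, and 1 thyroid marker is not reported here.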

Additional observations from a re-analysis of the deposited data

How the results depend on the processing

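Across the scalings, filters, DESeq2 and the replicate block, the members lower past both cutoffs numbered 10 to 12 and those higher 2. Leaving out each library in turn gave 9 to 13 lower and 2 to 3 higher, 18 to 26 that fell and 6 to 8 that rose at an adjusted P under 0.05, and a median log2 fold change of -0.22 to -0.16. In those fits the lone library of a time is assumed to vary like the other group. The shares of all genes called under each alternative are not given here. With the replicate block, 11 were lower, 2 were higher, 28 fell and 10 rose, with a median of -0.20. The libraries share only a number, and the correlation of their deviations was 0.158. Counting only the 41 tested members that overlap no other gene, a choice made after seeing the data, left 9 lower and 1 higher (XPO6), because XPO5 overlaps POLR1C. The shares past both cutoffs were 21.95% lower and 2.44% higher, beside 17.7% and 17.4% of all genes tested in the main fit. It left 21 that fell (51.2%) and 7 that rose (17.1%), beside 32.6% and 33% of all genes. Genes that overlap another gene were not removed from these shares of all genes, and the differences were not tested.

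Signs turned only for genes close to 0. With library size alone the log2 fold change was -0.038 for NUP62 and -0.041 for IPO7, in DESeq2 it was -0.0013 for IPO7, and under upper quartile scaling it was 0.015 for NUP98 and 0.0087 for KPNA1. Without a library, NUP62 ran from -0.031 to 0.036, IPO7 from -0.022 to 0.040, NUP98 from -0.078 to 0.058, KPNA1 from -0.099 to 0.054 and NUP133 from -0.18 to 0.0079. The cause was not tested. Of the other comparisons of the 50 tested members with an alternative, 476 kept their direction and their call by both cutoffs jointly. That call was lost in 5 and gained in 5. By the adjusted P alone, genes close to 0 included, 463 comparisons of the 50 tested members kept their side of 0.05. The call was lost in 27 (RCC1, KPNA6 and XPO4 among them) and gained in 10 (KPNA3, KPNA5, NUP93 and TNPO3 among them). KPNA7 did not pass the filter, so the calls it gained are outside these tallies, although the ranges above include them. Of the medians of roles and lists, 143 moved by less than the spread between libraries and 7 by more, and the median of all genes tested moved by more in 8 of 10 settings, staying between -0.04 and 0.03. Low counts limit NUP62CL and the 4 members that were not tested.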

Other observations

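The nuclear lamina, the filament layer beneath the envelope to which pores are fixed, was read from 16 tested lamina and envelope genes. Past both cutoffs, 4 (25%) were lower and 0 higher, beside 17.7% and 17.4% of all genes tested. At an adjusted P under 0.05, 11 (68.8%) fell and 1 (6.25%), EMD, rose, beside 32.6% and 33% of all genes, with a median log2 fold change of -0.37. The call of EMD was lost without the second 24 h library and without the first 6 h library. LMNB1, a B-type lamin, had raw counts of 979 and 1049 at 6 h and 244 and 289 at 24 h and a log2 fold change of -1.97 (SE 0.095). LMNB2 was lower at -0.90 (SE 0.075), SUN2, which links the lamina to the cytoskeleton, at -0.93 (SE 0.073) and TMPO at -0.53 (SE 0.076). TMPO fell short of the fold cutoff under upper quartile scaling (-0.50), without the second 24 h library (-0.43) and without the first 6 h library (-0.46). LMNA, the gene of the A-type lamins, had a value of -0.11 (SE 0.077) that did not pass the adjusted test, which it passed as lower at -0.17 without the second 6 h library.

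Genes of mRNA export prepare transcripts for passage through the pore. Of 18 tested genes, 2 (11.1%) were lower and 2 (11.1%) higher past both cutoffs, beside 17.7% and 17.4% of all genes tested. At an adjusted P under 0.05, 4 (22.2%) fell and 5 (27.8%) rose, beside 32.6% and 33% of all genes, and the difference from all genes was not tested. With library size alone 6 fell, and under upper quartile scaling and with the replicate block 6 rose. Calls changed too without the first 6 h library. The shares of all genes in these settings are not given here. The median was -0.05, and it ran from -0.09 without the first 24 h library to -0.007 without the second. THOC3 at -0.81 (SE 0.134) and ALYREF at -0.61 (SE 0.086) were lower, whereas DDX19A, a paralog of the helicase DDX19B, at 0.83 (SE 0.084) and THOC6 at 0.68 (SE 0.092) were higher. THOC3 and THOC6 belong to the same THO complex and lay on opposite sides of 0 in these libraries.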
